A study of Mus musculus with 24 samples.

Results

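The 5 genes described here, Il6, Il11, Lif, Clcf1 and Ctf1, encode ligands of the IL-6 family and were chosen by name from the 55471 genes counted in each library. They were measured by RNA-seq in 24 libraries of mouse embryonic fibroblasts (MEFs) of the immortalized 3T3 kind, in 8 groups of 3 libraries. The groups were wild-type MEFs, MEFs without the kinase LKB1 (Lkb1-/-, labelled LKB1 knockout) and clones A1 and A2 of MEFs without LKB1 and its downstream coactivator CRTC2 (labelled LKB1/CRTC2 knockout), each either untreated or stimulated with IL-1β. Stimulation was with 0.1 ng/mL IL-1β for 6 hours. Per the study's methods, the Crtc2 gene was edited with CRISPR/Cas9 and each double-knockout line was grown from a single cell. A1 and A2 are thus each 1 clone, and what editing did cannot be told apart from what differs between single clones. Per the same methods, the wild-type and Lkb1-/- MEFs were lines described earlier. What loss of LKB1 did cannot be told apart from what else differs between these lines. The labels number the libraries of a group but do not say whether they came from separate cultures, so the p-values measure the spread between these libraries, which may be technical.

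Ligands of this family signal through receptor complexes that contain the shared chain gp130, encoded by Il6st, and activate JAK kinases and STAT factors, STAT3 above all. IL-6 and IL-11 first bind their own receptors, IL-6Rα and IL-11Rα, whereas LIF and cardiotrophin 1 (encoded by Ctf1) signal through pairs of gp130 and the LIF receptor. Cardiotrophin-like cytokine factor 1 (encoded by Clcf1) also uses this pair, after binding the alpha receptor encoded by Cntfr. Fibroblasts are known sources of IL-6, IL-11 and LIF under inflammatory stimuli, and IL-1β induces Il6 through NF-κB, AP-1 and C/EBP factors. LKB1 activates salt-inducible kinases, which keep CRTC proteins in the cytoplasm, and CRTC2 in the nucleus is a coactivator of CREB, whose site in DNA is the cAMP response element (CRE).

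On GRCm38, Il6 (ENSMUSG00000025746.11) lies at chr5:30013114-30019981 on the forward strand, Il11 (ENSMUSG00000004371.15) at chr7:4772373-4782859 on the reverse strand, Lif (ENSMUSG00000034394.14) at chr11:4257557-4272514 on the forward strand, Clcf1 (ENSMUSG00000040663.9) at chr19:4214238-4223490 on the forward strand and Ctf1 (ENSMUSG00000042340.6) at chr7:127712736-127718192 on the forward strand. Ctf1 overlaps Ctf2, which is on the opposite strand, and Clcf1 overlaps 1 gene on its own strand (AC109138.7) and 1 on the opposite strand (Gm26115). All 5 genes passed the filter on low counts. Of their pairs counted on either strand, between 99.4% and 99.7% were on the strand of the gene.

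RefSeq promoter sequences of GRCm38.p6 were at hand for 4 of the 5 genes, all but Clcf1. The 250 bases before the start are shown for the 3 genes with the largest differences between genotypes after IL-1β, 5′ to 3′ on the strand of the gene, with Il11 at its inner start. Capitals mark matches, on either strand, of the CRE half-site TGACG, of the AP-1 motif TGANTCA and of the NF-κB motif.
Il6 (chr5:30012864-30013113, forward strand): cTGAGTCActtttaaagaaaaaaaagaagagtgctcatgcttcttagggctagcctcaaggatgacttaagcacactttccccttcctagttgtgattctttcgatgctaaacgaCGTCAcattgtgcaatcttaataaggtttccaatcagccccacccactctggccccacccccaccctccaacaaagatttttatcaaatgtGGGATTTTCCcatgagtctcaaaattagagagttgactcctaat
Il11 (chr7:4778142-4778391, reverse strand): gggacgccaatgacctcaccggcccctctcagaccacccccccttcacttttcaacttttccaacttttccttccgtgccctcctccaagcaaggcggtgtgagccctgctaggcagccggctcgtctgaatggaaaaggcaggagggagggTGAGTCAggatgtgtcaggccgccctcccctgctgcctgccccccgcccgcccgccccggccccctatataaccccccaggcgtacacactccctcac
Lif (chr11:4257318-4257567, forward strand): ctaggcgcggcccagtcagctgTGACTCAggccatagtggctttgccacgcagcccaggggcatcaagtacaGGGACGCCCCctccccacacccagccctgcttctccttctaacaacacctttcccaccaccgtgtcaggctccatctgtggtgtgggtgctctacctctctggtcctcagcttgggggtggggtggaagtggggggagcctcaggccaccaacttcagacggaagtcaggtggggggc

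The Il6 promoter held 1 match of each motif, with the AP-1 motif from 249 to 243 bases, the CRE half-site from 135 to 131 bases and the NF-κB motif from 44 to 35 bases before the start. The Il11 sequence held the AP-1 motif alone, from 98 to 92 bases before the start. The Lif sequence held the AP-1 motif from 228 to 222 bases and the NF-κB motif from 178 to 169 bases before the start. No motif matched at the outer start of Il11 (chr7:4782858-4783107, reverse strand) or before Ctf1 (chr7:127712453-127712702, forward strand), and the full palindromic CRE TGACGTCA, which contains the half-site, matched in none of these 5 sequences. Among 32851 promoter sequences of the same length, 1.55% held the full CRE, 17.8% the half-site, 6.75% the AP-1 motif and 7.25% the NF-κB motif. A match describes the letters of these windows and does not show that a factor binds there.

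The libraries held between 38842901 and 48594394 counts on genes (median 42431965), and values are given as normalized read counts (CPM, counts scaled to library size after TMM correction). Stk11, the gene of LKB1, fell from 86.0 ± 1.68 CPM in wild-type MEFs without treatment (SD, n = 3) to 17.3 ± 1.24 CPM in untreated Lkb1-/- MEFs, and Crtc2 was at 58.4 ± 2.44 CPM in untreated wild-type MEFs, at 81.1 ± 1.80 CPM in untreated Lkb1-/- MEFs and at 42.9 ± 2.11 CPM in untreated clone A1 and 49.8 ± 0.864 CPM in untreated clone A2, so reads of both genes remained after their disruption. The libraries numbered 1 stood apart from the others in all 8 groups, with a chi-square per degree of freedom of 37.7 to 107 in pairs with number 1 and of 7.42 to 18.7 between numbers 2 and 3. Without them, an alternative chosen after seeing the data, 105 of the 110 values of the 5 genes over 22 contrasts stayed on their side of the FDR threshold, 4 gained a call and 1 lost it. Of 8 fibroblast markers, 6 passed the filter in these cells, whereas Thy1 and Lum had at most 10 counts in any library. The summed level of these 8 markers ranged from 5136 to 9707 CPM over all libraries. Of 6 leukocyte markers, Ptprc, Adgre1 and Itgam had at most 2 counts in any library, and the summed level was between 2.49 and 4.04 CPM in untreated wild-type and between 4.36 and 5.93 CPM in untreated Lkb1-/- MEFs, with Csf1r at 0.0464 and 1.68 CPM. In the untreated clones the sum was between 6.89 and 8.54 CPM in A1 and between 6.69 and 7.68 CPM in A2, and Cd68 was called higher than in Lkb1-/- MEFs in both clones, untreated (0.57 in A1 and 0.67 in A2 on the log2 scale) and stimulated (0.59 and 0.77). Lyz2 was also called higher in both untreated clones, at no more than 20 counts. Of the fibroblast genes, Col1a1, Col1a2 and Vim were called lower in untreated Lkb1-/- than in wild-type MEFs (Col1a2 at 63.0 against 780 CPM), and Pdgfrb and Fn1 higher (Fn1 at 2014 against 640 CPM). Against Lkb1-/- MEFs, Col1a1, Col1a2 and Vim were called higher in A1 in both states, by between 0.31 and 2.19 on the log2 scale, and Col1a2 in A2 in both states, by 1.02 and 0.97. Of 4 endothelial markers, Cdh5 had at most 1 count, and the sum was between 0.424 and 0.678 CPM in untreated wild-type and between 2.45 and 2.85 CPM in untreated Lkb1-/- MEFs, nearly all of it Kdr in the latter. Kdr was called higher than in wild type in Lkb1-/- MEFs and in both clones, in both states (2.37 to 2.98 on the log2 scale). The 4 epithelial markers summed to at most 0.447 CPM in any library, and Epcam, at no more than 13 counts, was called higher than in wild type in the same groups (1.92 to 2.77) except stimulated A2 (1.49, FDR = 0.12). The part of other cells in the differences between genotypes was not tested.

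**Figure D1:**
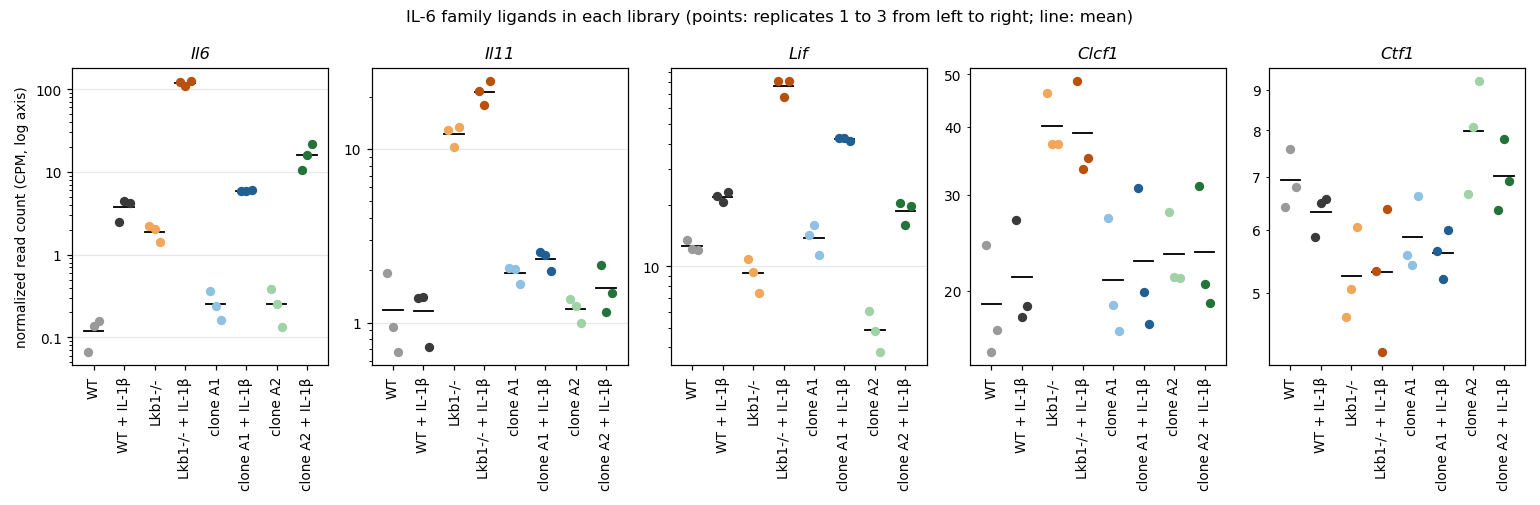
Normalized read counts of the 5 ligand genes in each of the 24 libraries, in CPM on a log axis with its own range for each gene; points are libraries and lines are means of 3. Il6 spans from 0.121 CPM in untreated wild-type MEFs to 118 CPM in IL-1β-stimulated Lkb1-/- MEFs, Il11 stands apart in both Lkb1-/- groups, and Ctf1 stays between 4.22 and 9.22 CPM in all libraries.

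Il6, the prototype of the family, was nearly silent in untreated wild-type MEFs, at 0.0670, 0.138 and 0.156 CPM in the 3 libraries, which are 3, 6 and 6 counts. In untreated Lkb1-/- MEFs it was at 2.22, 2.02 and 1.43 CPM. Untreated clone A1 had 0.366, 0.240 and 0.161 CPM and untreated clone A2 had 0.383, 0.255 and 0.132 CPM. Every untreated Lkb1-/- library was thus above every library of the other 3 untreated groups, whose levels were low in all libraries. After IL-1β, Il6 was at 2.49, 4.44 and 4.24 CPM in wild-type MEFs, whereas the Lkb1-/- libraries reached 121, 109 and 125 CPM. In stimulated clone A1 it was at 5.79, 5.87 and 5.97 CPM, and in stimulated clone A2 at 10.5, 15.8 and 21.6 CPM. All 4 stimulated groups lay apart from each other and above their untreated counterparts, and the clone A2 libraries spread more than those of clone A1. By mean level, the groups were ordered as stimulated Lkb1-/-, stimulated A2, stimulated A1, stimulated wild-type and untreated Lkb1-/- MEFs, followed by untreated A2, A1 and wild-type MEFs. In this order the last 3 groups did not differ from each other by neighbour (edgeR FDR of 0.974 for A2 against A1 and 0.159 for A1 against wild type), and untreated A2 differed from untreated Lkb1-/- MEFs above it. The highest group mean was 981 times the lowest, and 25 of the 28 pairs of groups were called at an FDR under 0.05.

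Il11 encodes interleukin 11, a ligand with known roles in fibroblast activation and gastrointestinal tumors. It was at 1.92, 0.944 and 0.678 CPM in untreated and at 1.38, 1.40 and 0.724 CPM in stimulated wild-type MEFs. Lkb1-/- MEFs had 12.8, 10.2 and 13.4 CPM untreated and 21.5, 17.9 and 24.6 CPM after IL-1β. Both Lkb1-/- groups were above all other libraries, and the stimulated one was above the untreated one. Clone A1 had 2.07, 2.04 and 1.68 CPM untreated and 2.55, 2.44 and 1.97 CPM after IL-1β. Clone A2 had 1.37, 1.25 and 0.991 CPM untreated and 2.14, 1.15 and 1.47 CPM after IL-1β. The wild-type and double-knockout groups overlapped with their neighbours in the order of levels, and none of the 5 steps between neighbours among these 6 groups was called. The highest mean was 18.2 times the lowest, and 16 of 28 pairs of groups were called.

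Lif encodes leukemia inhibitory factor, known for keeping mouse embryonic stem cells undifferentiated and as a cytokine of inflamed stroma. Without IL-1β it was at 13.4, 12.2 and 12.0 CPM in wild-type MEFs, and the Lkb1-/- libraries had 10.9, 9.42 and 7.43 CPM. Untreated clone A1 had 14.2, 15.96 and 11.3 CPM, and untreated clone A2 had 6.04, 4.84 and 3.81 CPM. Here the Lkb1-/- libraries lay below the wild-type ones, and clone A2 lay below all other groups. After IL-1β, Lif was at 22.2, 20.6 and 23.1 CPM in wild-type MEFs, and the Lkb1-/- libraries had 81.0, 67.9 and 80.8 CPM. Stimulated clone A1 had 42.5, 42.6 and 41.3 CPM, and stimulated clone A2 had 20.4, 15.9 and 19.7 CPM. The stimulated Lkb1-/- libraries were the highest, those of clone A1 were second, and those of clone A2 lay just under wild type, a step that was not called (FDR = 0.177). The mean levels spanned 15.6-fold, and 26 of 28 pairs of groups were called, the most among the 5 genes.

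Clcf1 encodes a ligand known for its action on neurons and B cells. It was at 24.3, 15.5 and 17.0 CPM in untreated and at 27.0, 17.95 and 18.7 CPM in stimulated wild-type MEFs. In Lkb1-/- MEFs it was at 46.1, 37.2 and 37.2 CPM untreated and at 48.5, 33.5 and 35.0 CPM after IL-1β. Every Lkb1-/- library was above every library of the other genotypes. Clone A1 had 27.2, 18.8 and 16.9 CPM untreated and 30.9, 19.9 and 17.4 CPM after IL-1β. Clone A2 had 27.9, 21.2 and 21.1 CPM untreated and 31.1, 20.6 and 19.0 CPM after IL-1β. The library numbered 1 was the highest of its group in 8 of 8 groups for Clcf1, against 3 groups for Il6, 5 for Il11, 5 for Lif and 0 for Ctf1. Whether the number stands for a shared batch is not in the labels. Without the libraries numbered 1 in all 8 groups, the log2 difference of Clcf1 between untreated Lkb1-/- and wild-type libraries was 1.197 (edgeR FDR = 2.3e-08). Compared between libraries of the same number, the untreated Lkb1-/- and wild-type values of Clcf1 differed by 0.92, 1.26 and 1.13 on the log2 scale. The highest mean was 2.12 times the lowest, and 12 of 28 pairs of groups were called.

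Ctf1 encodes cardiotrophin 1, a ligand known for its action on heart muscle cells, and had the flattest profile. It was at 6.41, 7.57 and 6.78 CPM in untreated wild-type MEFs, and the Lkb1-/- libraries had 4.66, 5.06 and 6.05 CPM. Untreated clone A1 had 5.58, 5.42 and 6.62 CPM, and untreated clone A2 had 6.65, 8.08 and 9.22 CPM. The highest untreated Lkb1-/- library was thus below the lowest wild-type one. After IL-1β it was at 5.87, 6.49 and 6.57 CPM in wild-type MEFs, at 5.33, 4.22 and 6.38 CPM in Lkb1-/- MEFs, at 5.64, 5.20 and 5.99 CPM in clone A1 and at 6.36, 7.80 and 6.91 CPM in clone A2. No group differed from its neighbour in the order of levels, the means spanned 1.52-fold, and 8 of 28 pairs of groups were called.

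The first comparison asked how these genes differ between Lkb1-/- and wild-type MEFs. In untreated MEFs Il6 was 15.6-fold higher (log2 fold change 3.96, SE 0.44, edgeR FDR = 1.1e-07), Il11 10.2-fold higher (3.34, SE 0.29, FDR = 2.8e-09) and Clcf1 2.12-fold higher (1.08, SE 0.25, FDR = 0.00075) in Lkb1-/- than in wild-type MEFs. Lif was lower by a smaller amount (−0.44, SE 0.15, FDR = 0.017), and so was Ctf1 (−0.40, SE 0.15, FDR = 0.028). All 5 genes were thus called, 3 higher and 2 lower, in a comparison that called 55.9% of the 17522 genes tested. For all 5 genes the libraries of the groups did not overlap, but how common this was among all genes was not counted. As the wild-type level of Il6 rests on 15 counts over 3 libraries, the ratio of its summed counts was also taken, and it was 15.99 with an exact Poisson interval from 9.51 to 29.0, which covers counting error only. The Lif call was lost without wild-type replicate 1 (FDR = 0.061) or Lkb1-/- replicate 3 (FDR = 0.075). The Ctf1 call was lost without Lkb1-/- replicate 1 (FDR = 0.053), wild-type replicate 2 (FDR = 0.11) or Lkb1-/- replicate 2 (FDR = 0.081), and both calls were lost with upper quartile scaling (FDR = 0.081 for Lif and 0.052 for Ctf1). The Ctf1 call was also lost with no filter on low counts (FDR = 0.057) and without the libraries numbered 1 (FDR = 0.090).

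After IL-1β the same comparison gave larger differences for Il6, Il11 and Lif. Il6 was 31.7-fold higher in Lkb1-/- MEFs (log2 fold change 4.99, SE 0.25, edgeR FDR = 4.2e-13), Il11 18.1-fold (4.18, SE 0.30, FDR = 1.2e-10), Lif 3.49-fold (1.80, SE 0.15, FDR = 9.3e-10) and Clcf1 1.84-fold (0.88, SE 0.25, FDR = 0.0042). Lif was on opposite sides of wild type in untreated and stimulated cells. The 4 genes were called higher and none lower, against 57.4% of all genes called in either direction. Ctf1 was at −0.25 (SE 0.15, FDR = 0.16), and it was called lower without stimulated Lkb1-/- replicate 3 (−0.42, FDR = 0.028).

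**Figure D2:**
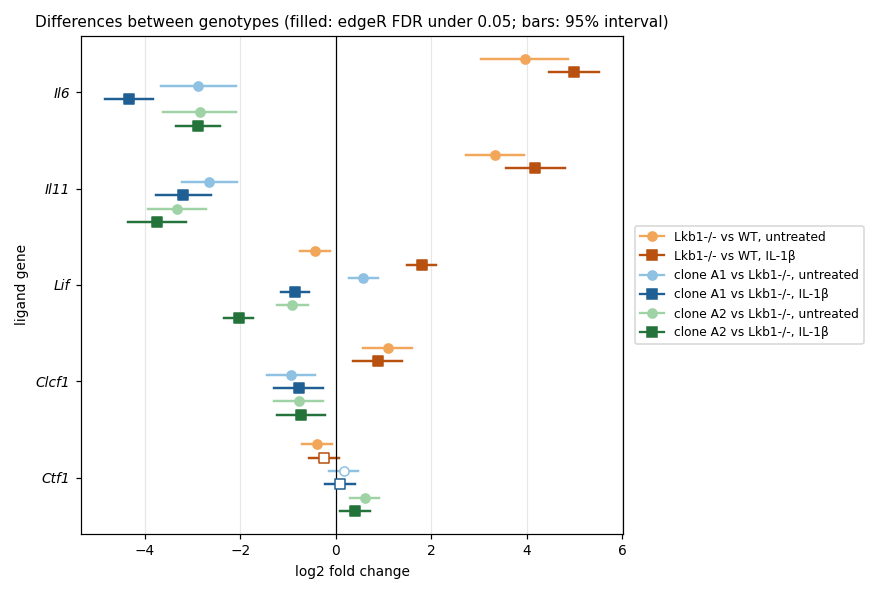
Log2 fold changes of the 5 ligand genes between genotypes, untreated (circles) and after IL-1β (squares), with 95% intervals as bars and filled symbols for an edgeR FDR under 0.05. Il6, Il11 and Clcf1 lie above 0 for Lkb1-/- against wild type and below 0 for both clones against Lkb1-/-, whereas Lif changes sides between treatments for Lkb1-/- against wild type and for A1 against Lkb1-/-, and lies below 0 in both states for A2 against Lkb1-/-.

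The second comparison asked how the double-knockout clones differ from Lkb1-/- MEFs. In untreated clone A1, Il6 was at 0.136 of its Lkb1-/- level (log2 fold change −2.88, SE 0.38, edgeR FDR = 4.8e-06) and Il11 at 0.159 of it (−2.65, SE 0.28, FDR = 2.8e-07). In untreated clone A2, Il6 was at 0.139 (−2.85, SE 0.37, FDR = 5.4e-06) and Il11 at 0.0995 of its Lkb1-/- level (−3.33, SE 0.29, FDR = 3.4e-08). Both genes thus fell in both clones, and no library of a clone overlapped with one of Lkb1-/- MEFs. Clcf1 fell by less, by 0.94 on the log2 scale in A1 (SE 0.25, FDR = 0.0047) and by 0.78 in A2 (SE 0.24, FDR = 0.018). The clones went opposite ways for Lif, which was higher in A1 (0.58, SE 0.15, FDR = 0.0045) and lower in A2 (−0.91, SE 0.16, FDR = 0.00013). Ctf1 was called higher in A2 (0.60, SE 0.15, FDR = 0.0034) and not in A1 (0.16, SE 0.15, FDR = 0.45). In all, 4 of the 5 genes were called in A1, 3 of them lower, against 35.3% of all genes, and 5 in A2, 4 of them lower, against 32.3% of all genes. The Clcf1 call in A2 was lost without Lkb1-/- replicate 1 (FDR = 0.0998), A2 replicate 2 (FDR = 0.087) or A2 replicate 3 (FDR = 0.088). Without the libraries numbered 1 in all groups it remained (−0.82, FDR = 5.4e-06), and libraries of the same number differed by −0.72, −0.81 and −0.82. The 2 comparisons share the Lkb1-/- libraries.

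After IL-1β, Il6 was at 0.0497 of the Lkb1-/- level in A1 (log2 fold change −4.33, SE 0.24, edgeR FDR = 4.2e-11) and at 0.135 of it in A2 (−2.89, SE 0.22, FDR = 6.2e-09). Il11 was at 0.109 in A1 (−3.20, SE 0.28, FDR = 2.4e-08) and at 0.0745 in A2 (−3.75, SE 0.29, FDR = 6.1e-09). Lif, which had gone opposite ways in the untreated clones, fell by 0.86 in A1 (SE 0.14, FDR = 6.6e-05) and fell by 2.03 in A2 (SE 0.15, FDR = 3.0e-09) on the log2 scale. Clcf1 fell by 0.78 in A1 (SE 0.24, FDR = 0.016) and by 0.73 in A2 (SE 0.24, FDR = 0.026). Ctf1 was called in A2 alone (0.41, SE 0.15, FDR = 0.041), with overlapping libraries, and was at 0.08 in A1 (SE 0.15, FDR = 0.72). These are 4 genes called in A1, all lower, against 36.7% of all genes, and 5 in A2, 4 of them lower, against 32.8% of all genes.

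Of these calls, that of Clcf1 in stimulated A1 was lost without Lkb1-/- replicate 1 (edgeR FDR = 0.0898), A1 replicate 2 (FDR = 0.070) or A1 replicate 3 (FDR = 0.11). That of Clcf1 in stimulated A2 was lost without Lkb1-/- replicate 1 (FDR = 0.13), A2 replicate 2 (FDR = 0.12) or A2 replicate 3 (FDR = 0.13). Both Clcf1 calls remained when the libraries numbered 1 were left out of all 8 groups together (FDR = 2.1e-06 for A1 and 6.9e-06 for A2). That of Ctf1 in stimulated A2 was lost without Lkb1-/- replicate 1 (FDR = 0.083) or 2 (FDR = 0.23) or A2 replicate 2 (FDR = 0.12) or 3 (FDR = 0.0599), with unstranded counts (FDR = 0.054) and with no filter on low counts (FDR = 0.11).

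The double-knockout clones were then compared with wild-type MEFs. In untreated A1 none of the 5 genes was called by edgeR, against 55.4% of all genes, with 1 gene, Il11, at an unadjusted p under 0.05 and 1 called by DESeq2. Il6 was 1.08 (SE 0.63, FDR = 0.16) and Il11 0.69 (SE 0.30, FDR = 0.056) above wild type on the log2 scale there, and without wild-type replicate 1, the highest wild-type library for Il11, the latter was called (1.24, FDR = 0.0013). In untreated A2, Il6 was 1.11 above wild type (SE 0.62, FDR = 0.13), and DESeq2 called it (FDR = 0.043). The ratio of summed Il6 counts to the wild-type ones was 2.14 in A1 (exact Poisson interval 1.13 to 4.25) and 2.20 in A2 (1.17 to 4.32), which covers counting error only. In untreated A2, Lif was called, at 0.391 of the wild-type level (−1.35, SE 0.16, FDR = 1.6e-07), against 60.6% of all genes called. Il11 was at 0.02 (95% interval −0.63 to 0.66) in untreated A2, and Clcf1 was at 0.15 (−0.37 to 0.66) in A1 and at 0.31 (−0.20 to 0.82) in A2. Clcf1 was called higher in untreated A2 with no filter on low counts (FDR = 0.030) and without the libraries numbered 1 (0.38, FDR = 0.0012), and libraries of the same number differed by 0.20, 0.46 and 0.31.

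After IL-1β, clone A1 had 1.58-fold more Il6 (log2 fold change 0.66, SE 0.24, edgeR FDR = 0.022), 1.98-fold more Il11 (0.98, SE 0.30, FDR = 0.0077) and 1.92-fold more Lif (0.94, SE 0.14, FDR = 1.0e-05) than wild-type MEFs. These were 3 genes called, all higher, against 56.9% of all genes. In stimulated A2, Il6 was 4.29-fold higher (2.10, SE 0.23, FDR = 8.9e-08) and was the only one of the 5 genes called, against 60.8% of all genes. Lif was at −0.23 (SE 0.15, FDR = 0.18) in A2. In A1 the Il6 call was lost without wild-type replicate 1 (FDR = 0.14) or A1 replicate 3 (FDR = 0.053), and the Il11 call without wild-type replicate 3 (FDR = 0.057).

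The clones also differed from each other. Untreated, Lif was at 0.355 of the A1 level in A2 (log2 fold change −1.49, SE 0.16, edgeR FDR = 3.5e-07) and Ctf1 1.36-fold higher in A2 (0.44, SE 0.15, FDR = 0.026), against 32.5% of all genes called. After IL-1β, Lif was at 0.444 of the A1 level (−1.17, SE 0.15, FDR = 3.1e-06) and Il6 2.72-fold higher in A2 (1.44, SE 0.22, FDR = 4.3e-05), against 30.7% of all genes. Il6 and Lif thus differed in opposite directions between the stimulated clones. Il11 was lower in A2 than in A1 in both states without being called (−0.68, FDR = 0.088, and −0.55, FDR = 0.16), and was called with no filter on low counts (FDR = 0.0065 untreated and 0.031 stimulated). The Ctf1 call was lost without A1 replicate 1 (FDR = 0.086) or 2 (FDR = 0.10) or A2 replicate 2 (FDR = 0.052) or 3 (FDR = 0.12), and with no filter on low counts (FDR = 0.0597).

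The third comparison asked how each genotype responds to IL-1β, a cytokine that acts through its receptor on NF-κB and AP-1. Il6 and Lif rose in all 4 genotypes, and Il11, Clcf1 and Ctf1 were not called in any. Il6 rose 30.7-fold in wild-type MEFs (log2 fold change 4.94, SE 0.41, edgeR FDR = 1.0e-07), 62.4-fold in Lkb1-/- MEFs (5.96, SE 0.27, FDR = 5.0e-12), 22.9-fold in A1 (4.52, SE 0.34, FDR = 3.2e-08) and 60.8-fold in A2 (5.93, SE 0.32, FDR = 1.7e-10). Among all 17522 genes, that rise ranked 19, 9, 12 and 6 from the top in these genotypes. Without the libraries numbered 1, the rise of Il6 in A2 was 6.59 on the log2 scale. Lif rose 1.75-fold in wild-type MEFs (0.81, SE 0.15, FDR = 0.0026), 8.28-fold in Lkb1-/- MEFs (3.05, SE 0.16, FDR = 2.7e-11), 3.05-fold in A1 (1.61, SE 0.15, FDR = 5.7e-07) and 3.81-fold in A2 (1.93, SE 0.16, FDR = 5.0e-08). The 2 genes called in each genotype compare with 2.26% of all genes called in wild-type MEFs, 4.74% in Lkb1-/- MEFs, 1.99% in A1 and 5.68% in A2.

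The other 3 ligand genes were not called after IL-1β. Il11 was at 0.81 in Lkb1-/- MEFs (SE 0.25, edgeR FDR = 0.071), where the libraries of the states did not overlap. It was called there with DESeq2 (FDR = 0.022), without the libraries numbered 1 (FDR = 0.027), with edgeR's newer quasi-likelihood method (FDR = 0.0053) and with no filter on low counts (FDR = 6.9e-05). Taking the replicate number as a block in the edgeR model also called it (FDR = 0.0024). In wild-type MEFs Il11 was at −0.02 (95% interval −0.67 to 0.63). Clcf1 lay between −0.04 and 0.16 and Ctf1 between −0.18 and 0.01 on the log2 scale over the 4 genotypes. For Ctf1, no interval reached beyond −0.49 or 0.32.

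**Figure D3:**
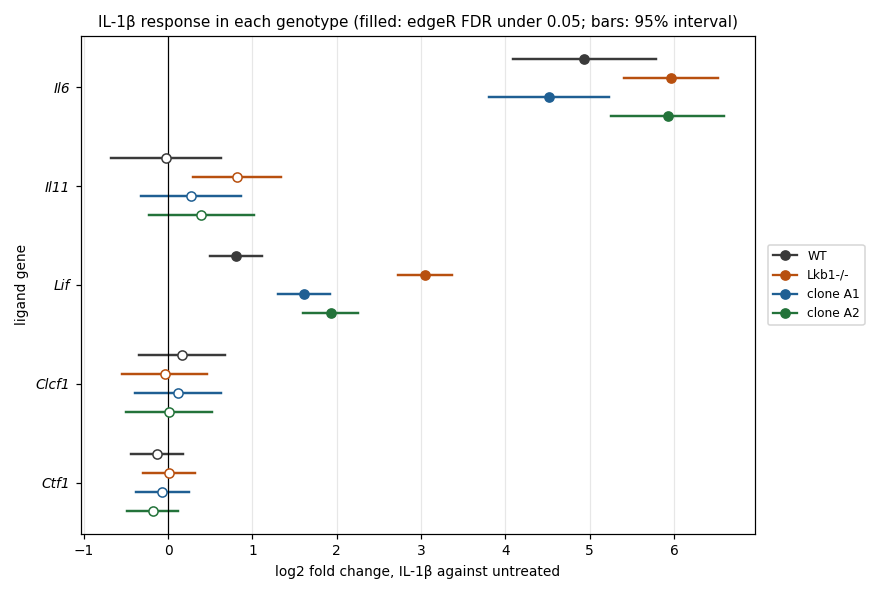
Log2 fold changes of the 5 ligand genes after IL-1β against untreated in each genotype, with 95% intervals as bars and filled symbols for an edgeR FDR under 0.05. Il6 and Lif are above 0 in all 4 genotypes, and the Lif response is largest in Lkb1-/- MEFs at 3.05.

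Because a larger level in stimulated cells can come from a higher start or from a larger rise, the differences between the responses were tested as interaction terms. For Lif, the response of Lkb1-/- MEFs was larger than the wild-type one by 2.24 (log2, SE 0.21, edgeR FDR = 7.0e-06). It was the only one of the 5 genes called, against 0.245% of all genes. For Il6 this difference was 1.03, with a 95% interval from −0.38 to 2.43 (FDR = 1), and the 15 counts of untreated wild-type MEFs bound the precision. For Il11 it was 0.84 (95% interval 0.0016 to 1.67, FDR = 0.89). Thus Lif rose more steeply in Lkb1-/- MEFs, from a start called lower by edgeR, a call that some alternatives lost. The separation of Il6 and of Il11 from wild type was already present in untreated cells. Whether these 2 genes also rose more steeply is not settled by their intervals.

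Compared with Lkb1-/- MEFs, the Lif response of clone A1 was smaller by 1.44 on the log2 scale (SE 0.21), and it was the only one of the 5 genes called (edgeR FDR = 0.015), against 0.0285% of all genes. In clone A2 the Lif response was smaller by 1.12 (SE 0.21, FDR = 0.22), and 0 of the 5 genes and 0% of all genes were called by edgeR. At an unadjusted p under 0.05 there were 1 of the 5 genes and 388 of all genes in that comparison, and DESeq2 called 1 and 12 of them. Il6 had a difference of −1.45 (SE 0.51, FDR = 1) in A1 and of −0.04 (SE 0.73, FDR = 1) in A2. In A1 the unadjusted edgeR p of Il6 was 0.011, and with no filter on low counts Il6 was called (−1.43, FDR = 0.0024). The Lif call in A1 was lost without A1 untreated replicate 2 (FDR = 0.085), A1 stimulated replicate 1 (FDR = 0.062) or 2 (FDR = 0.067), or Lkb1-/- replicate 3 untreated (FDR = 0.051) or stimulated (FDR = 0.052).

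Against wild-type MEFs, the Lif response was larger by 1.12 in A2 (SE 0.21, edgeR FDR = 0.021), the only one of the 5 genes called, against 0.365% of all genes. It was larger by 0.80 in A1 (SE 0.21, FDR = 0.30), where edgeR called 0 of the 5 genes and 0.0799% of all genes, with 1 of the 5 at an unadjusted p under 0.05 and 1 called by DESeq2. Between the clones, 0 of the 5 genes and 0% of all genes were called by edgeR. There 1 of the 5 genes, Il6 with a larger response in A2 by 1.41 (SE 0.58), and 489 of all genes had an unadjusted p under 0.05, and DESeq2 called 0 of the 5 and 10 of all genes. The Lif call in A2 was lost without wild-type untreated replicate 1 (FDR = 0.057), wild-type stimulated replicate 2 (FDR = 0.064), A2 untreated replicate 2 (FDR = 0.066) or 3 (FDR = 0.057), or A2 stimulated replicate 3 (FDR = 0.058).

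To set the genes beside each other, CPM values were divided by the exon length of each gene (2428 bases for Il6, 2081 for Il11, 4350 for Lif, 3806 for Clcf1 and 1824 for Ctf1), which gives CPM per kb. The sum over the 5 genes was 12.3 ± 1.45 CPM per kb (SD, n = 3) in untreated wild-type MEFs, 22.2 ± 1.92 in untreated Lkb1-/- MEFs, 12.9 ± 1.56 in A1 and 12.3 ± 0.745 in A2. After IL-1β it was 16.2 ± 0.828, 89.7 ± 8.34, 22.3 ± 2.04 and 21.7 ± 1.25 CPM per kb in the same order of genotypes. The sum of the clones, both untreated and stimulated, was thus closer to wild type than to Lkb1-/- MEFs.

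The makeup of this sum differed as well. Clcf1 had the largest mean share in all 4 untreated groups, with 40.1% in wild-type MEFs (35.2% to 45.9% over the libraries, overlapping with 25.2% to 35.99% for Ctf1), 47.5% in Lkb1-/- MEFs, 42.1% in A1 and 49.7% in A2. Il6 made up 0.420% of the sum in untreated wild-type MEFs, 3.51% in untreated Lkb1-/- MEFs and 54.4% in stimulated Lkb1-/- MEFs. In the stimulated clones the shares of Il6 were 10.9% in A1 and 30.2% in A2. Lif led in stimulated A1 with 43.7%. In stimulated A2 the shares of Il6 (19.9% to 38.8% over the libraries) and Clcf1 (21.8% to 37.7%) overlapped, as did those of Clcf1 (30.4% to 41.4%) and Lif (29.9% to 33.3%) in stimulated wild-type MEFs. Il11 reached its largest share, 26.3%, in untreated Lkb1-/- MEFs. These are shares of RNA, and secreted protein was not measured in these data. As Clcf1 overlaps AC109138.7 on its own strand, its counts and shares are uncertain.

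**Figure D4:**
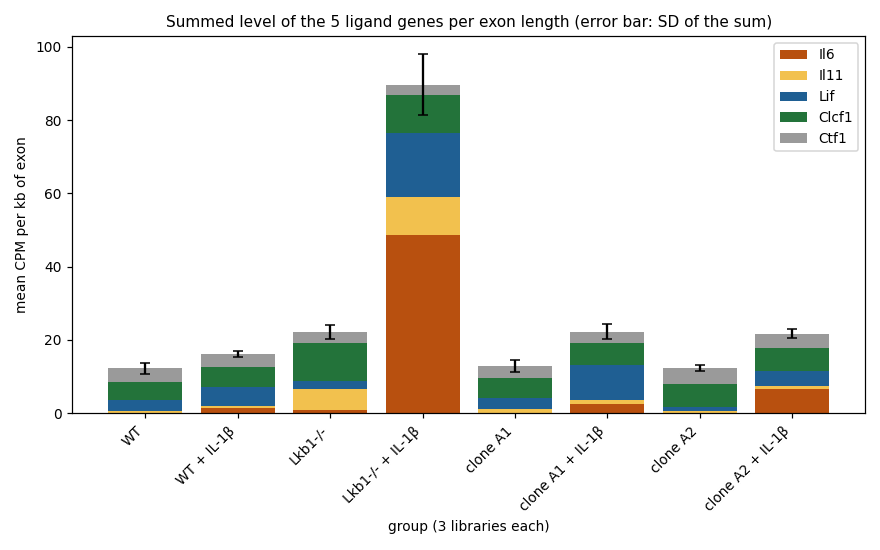
Mean level of the 5 ligand genes per exon length, stacked by group, in CPM per kb of exon, with the SD of the sum of 3 libraries as error bar. The stimulated Lkb1-/- group reaches 89.7 CPM per kb, more than the sum in any other group, and Il6 makes up 54.4% of it.

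The other ligands of the family were scarce in these cells. Osm (oncostatin M) had at most 1 count in any library, Ctf2 and Il27 at most 2 counts, and Ebi3 at most 4 counts. Cntf, the gene of ciliary neurotrophic factor, had mean levels between 0.773 and 1.65 CPM and overlaps Zfp91 on the same strand, so its counts are uncertain.

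The genes that receive and pass on these ligands were described as lists. Of 7 receptor genes, 6 passed the filter, all but Il27ra. In untreated Lkb1-/- against wild-type MEFs, 3 of them were called higher and 2 lower, with a median log2 fold change of 0.29 against 0.04 over all genes, of which 55.9% were called. Osmr, the oncostatin M receptor, rose from 28.6 ± 2.82 to 223 ± 11.5 CPM (2.96, SE 0.14, edgeR FDR = 1.3e-13) and Il11ra1, the receptor of IL-11, rose by 0.88 (SE 0.15, FDR = 3.1e-05). Cntfr, the alpha receptor of ciliary neurotrophic factor and of the Clcf1 ligand, had no count in untreated wild-type cells and a mean of 0.417 CPM without LKB1. Against a floor of 3 counts per library, it was thus at least 5.84-fold higher, and the median of the list was the same with Cntfr at this bound. Il6ra fell by 0.70 (SE 0.0871, FDR = 6.3e-07) and Lifr by 0.77 (SE 0.23, FDR = 0.0081), while Il6st, the shared chain, was at −0.31 (SE 0.15, FDR = 0.090). After IL-1β, Il6st rose in Lkb1-/- MEFs (0.72, SE 0.15, FDR = 0.0046) and in A2 (0.70, SE 0.15, FDR = 0.0058), and Osmr rose in wild-type MEFs (0.67, SE 0.13, FDR = 0.0054). Il6ra rose in wild-type MEFs (0.42, SE 0.0862, FDR = 0.0079), in A1 (0.38, SE 0.0886, FDR = 0.027) and in A2 (0.38, SE 0.0869, FDR = 0.0099), and was at 0.16 in Lkb1-/- MEFs (FDR = 0.41). The clones differed in this list, with Lifr higher in A2 than in A1 by 1.28 untreated (SE 0.24, FDR = 0.00025) and 1.35 stimulated (SE 0.24, FDR = 0.00016).

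Of the 7 JAK and STAT genes, 1 was called higher and 3 lower in untreated Lkb1-/- against wild-type MEFs (median −0.25 against 0.04 over all genes), which is close to the 55.9% of all genes called. After IL-1β, Stat3 lay between −0.49 and −0.10 over the 4 genotypes without being called. Of the lower ones, Tyk2 was not called with upper quartile scaling (FDR = 0.062). Stat3, the main STAT factor of the family, was at 0.39 in that comparison (SE 0.18, FDR = 0.067), called with upper quartile scaling (0.47, FDR = 0.0095). Of the 6 feedback inhibitors, 1 was called higher and 1 lower in untreated Lkb1-/- against wild-type MEFs, beside 55.9% of all genes called. Socs3, a target of STAT3 that blocks gp130, was the higher one (1.21, SE 0.26, FDR = 0.00036) and Socs2 the lower one (−5.87, SE 0.28, FDR = 1.4e-13). Socs3 was at 20.6 ± 1.58 CPM in untreated wild-type MEFs, 47.8 ± 7.18 in Lkb1-/- MEFs, 36.03 ± 5.04 in A1 and 77.0 ± 24.9 in A2. In untreated A2 Socs3 was thus above the Lkb1-/- level (0.69, SE 0.25, FDR = 0.039), where Il6, Il11, Lif and Clcf1 were below it.

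Across the 24 libraries, the genes with the profile most like each ligand gene were ranked by Pearson's r of log2 CPM among 12516 genes. For Il6 these were Ier3 (r = 0.953), Syt7 (0.943) and Slc11a1 (0.941), and for Il11 they were Tubb2a (0.939), Camta1 (0.930) and Fam110c (0.929). Lif was followed by Csf3 (0.909), Nfkb1 (0.904) and Ptgs2 (0.889). Ctf1 had the lowest values, with Amigo2 (0.870), Srd5a1 (0.845) and Mat2b (0.834). For Clcf1 the nearest were the noncoding genes Ftx (0.928), AC090479.2 (0.925) and A130014A01Rik (0.903). Within the groups, the correlation of deviations from the group means was 0.753 to 0.909 for the Clcf1 genes and 0.655 to 0.714 for the Ctf1 genes. It was of mixed sign for the others, with −0.498 for Tubb2a, −0.0519 for Camta1 and 0.190 for Fam110c with Il11, 0.579, −0.151 and 0.263 for the Il6 genes in the order above, and 0.472, −0.275 and 0.682 for the Lif genes. The libraries share their groups and numbers, so these values describe likeness and carry no test. Among the ligand genes themselves, r was 0.800 for Il6 and Lif, 0.835 for Il11 and Clcf1 and 0.231 for Lif and Clcf1, and Ctf1 was negatively related to each of the other 4, between −0.653 and −0.408.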

How the data were processed

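RNA-seq counts per gene were deposited by the authors for 24 libraries, 3 in each of 8 groups. Per the labels and the submitters' processing notes, reads were trimmed with Trim Galore 0.6.0, aligned to GRCm38 and counted with STAR 2.7.8a. The deposited files hold raw counts on 55471 gene identifiers for unstranded, first-strand and second-strand counting, and the second-strand column was used. The labels and the study's methods name different library kits, so the selection of RNA before sequencing is uncertain. Lines that name no gene held 26.7% to 34.4% of the pairs and were left out. Symbols came from a GENCODE annotation and promoters from RefSeq.

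Genes passing edgeR's filterByExpr by group (minimum count 10, minimum total 15) were tested, 17522 in all. One quasi-likelihood model of the 24 libraries with a term for each group was fitted in edgeR 4.0.16 (TMM factors 0.922 to 1.09), and 22 contrasts were tested with Benjamini-Hochberg adjustment over all genes of a contrast (FDR), with a threshold of 0.05. Standard errors are the log2 fold change divided by the square root of F, and intervals are at 95%. All p-values are two-sided. The procedure was tested on simulated counts drawn without an effect of the replicate number, so that test does not cover such an effect. Replicate libraries of a group differed by more than sampling noise (chi-square per degree of freedom 7.42 to 107 over 24 pairs, highest in pairs with the library numbered 1 in every group). Alternatives were unstranded counts, RLE and upper quartile scaling, no filter, edgeR's newer quasi-likelihood method, DESeq2 1.42.0, the replicate number as a block, and leaving out each library in turn. Named were the 5 ligand genes, genes of the lists where they are described, Stk11, Crtc2 and, for each ligand gene, the 3 genes with the highest correlation among genes with a mean log2 CPM over 0 (prior count 2). The members and lists were chosen with earlier results of these data known. One listed gene is not reported here.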

Additional observations from a re-analysis of the deposited data

Results flagged for a closer look

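The IL-1β response of Lif differed between genotypes by the interaction terms of the edgeR model in 3 comparisons. It was larger in Lkb1-/- than in wild type, with a log2 difference of 2.24 (SE 0.21, FDR = 7.0e-06), with Lif rising in both. Against Lkb1-/- MEFs it differed by −1.44 in clone A1 (SE 0.21, FDR = 0.015). Against wild-type MEFs it was larger by 1.12 in clone A2 (SE 0.21, FDR = 0.021). The A1 and A2 differences were not called when any of 5 single libraries each was left out.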

How the results depend on the processing

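Of the 110 values of the 5 genes over 22 contrasts, none changed sign while called under any alternative. With upper quartile scaling 3 genes were called for untreated Lkb1-/- against wild-type MEFs. In untreated A1 against wild type, 1 gene was called with upper quartile scaling, no filter, the replicate block, DESeq2 and without the libraries numbered 1 (16 libraries, chosen after seeing the data). In untreated A2 against wild type, 3 were called with no filter and 2 with the replicate block, DESeq2 or without number 1. For the response difference of A1 from Lkb1-/- MEFs, 2 were called with no filter, Lif and Il6. For those of A2 from Lkb1-/- and A1 from wild-type MEFs, 1 each was called with no filter, the replicate block and DESeq2, and 1 for A2 from A1 with no filter. Leaving out each library gave 3 to 5 called genes for stimulated A2 against Lkb1-/- MEFs, 0 to 1 for untreated A1 against wild type, 1 to 2 for untreated A2 against A1, and 0 to 1 for the response differences of A1 from Lkb1-/- and of A2 from wild-type MEFs.

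The labels do not say that libraries with the same number share a batch. Their deviations from the group means correlated between 0.0355 and 0.589 (median 0.222) over 84 same-number pairs, 69 of them over 0.1. The median was −0.115 over 168 pairs of unlike numbers from different groups. Of 24 libraries, 23 correlated best with their own number, a hint from the data only. The replicate block made 7 of the 110 values pass the threshold and lost none. These were Il11 in untreated A1 against wild type (0.71, FDR = 0.019), in untreated A2 against A1 (−0.69, FDR = 0.030) and after IL-1β in Lkb1-/- MEFs (0.82, FDR = 0.0024), Clcf1 in untreated A2 against wild type (0.32, FDR = 0.00087), Ctf1 in stimulated A2 against A1 (0.33, FDR = 0.031), and the Lif response of A2 against Lkb1-/- (−1.12, FDR = 0.0063) and of A1 against wild-type MEFs (0.80, FDR = 0.023). Without the libraries numbered 1, Clcf1 was also called for untreated A2 against A1 (0.24, FDR = 0.030). Upper quartile scaling moved the median of all genes by up to 0.11 on the log2 scale. Depth limits the untreated Il6 values, with at most 6 counts in wild-type libraries.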
